A study of Mus musculus with 36 samples.

Results

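The 86 genes described here encode the nuclear subunits of oxidative phosphorylation. They were taken by symbol from the 36172 gene entries of the table (Nduf a, b, c, s and v genes, Sdha to Sdhd, Cyc1 and Uqcr genes, Cox4 to Cox8 genes and Atp5 genes). The pattern matched 88 rows, and 2 pseudogene rows, Atp5l-ps1 and Atp5l2, were left out. Complex I holds 36 of the genes, complex II 4, complex III 9, complex IV 20 and complex V 15. Ndufa4 and Ndufa4l2 are counted with complex IV, where the Ndufa4 protein is now placed, and Atp5s and Atp5sl, matched by symbol only, are kept apart as 2 further genes.

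The libraries came from the hippocampus of Cx3cr1-NuTRAP mice of both sexes. In these animals a tamoxifen-inducible cre, expressed from Cx3cr1, a gene of microglia and other myeloid cells, switches on a GFP-tagged ribosomal protein, so that ribosome-bound RNA of the recombined cells can be pulled down with an anti-GFP antibody (translating ribosome affinity purification, TRAP). The input is a part of the same cleared tissue lysate taken before the pulldown. Every group carried the transgenes and was induced. The young inputs (n = 10; 5 female, 5 male; 6 months) and the old early inputs (n = 12; 7 female, 5 male; 22 months) came from animals with early induction. The old late inputs (n = 7; 5 female, 2 male; 22 months) came from animals with late induction, and the 7 TRAP libraries came from the same 7 animals. No TRAP library of the early-induced animals was used here.

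Oxidative phosphorylation couples the oxidation of NADH and succinate to ATP synthesis. Complexes I and II feed electrons into ubiquinone, complex III passes them to cytochrome c, complex IV passes them to oxygen, and complex V uses the proton gradient built by complexes I, III and IV to make ATP. Except for complex II, which is wholly nuclear encoded, each complex joins nuclear subunits with subunits encoded by mitochondrial DNA. None of the 13 mitochondrial genes had an entry in the table. In the brain most of this capacity serves neurons, while resting microglia are a small share of the tissue's RNA.

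Library totals were between 12897306 and 20448675 estimated counts. The TRAP libraries carried the RNA they were meant to carry, with Cx3cr1 at 579.5 to 908.4 CPM (counts scaled to a common library total, on edgeR's trimmed-mean scale throughout) against 32.3 to 44.5 in the matched inputs. All 14 microglial marker genes were higher in TRAP, with a median log2 fold change of 4.28. Markers of oligodendrocytes, astrocytes, choroid plexus and blood were lower, and 7 of 7 endothelial markers were higher. Neuronal RNA remained in the pulldown, where 5 of 9 neuronal markers were lower and the list's median was only -0.21. In a bulk library, fewer cells of a type and less RNA per cell cannot be told apart. The labels' library index ran from 1 to 23 in the old early inputs, 25 to 38 in the old late libraries and 39 to 57 in the young inputs, so any effect of library order and the groups cannot be told apart.

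Promoter windows are printed for the members with the clearest match to a known respiratory promoter element and for a pair of tissue isoforms described later. RefSeq windows (GRCm38.p6) were at hand for 70 of the 86 members and for 27025 genes in all, and the 250 bases before the annotated start were searched on both strands. The NRF1 pattern, named for a factor known to drive respiratory genes, is GCGC, then any 2 bases, then GCGC, and it was found in 15 of 70 members (21.4%) against 5.6% of all genes. Its palindrome, with AT between the GCGC blocks, was found in 4 of 70 members and in 0.9% of all genes. The ETS core CCGGAAG, recognised by GABP, stood in 12 of 70 members (17.1%, against 7.8%), YY1's AAGATGGCG in 2 of 70 (2.9%, against 0.7%) and the TATA element TATAAA in 6 of 70 (8.6%, against 14.3%). These matches describe letters in a window and are not evidence of binding.

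The 4 members with the exact palindrome are Ndufa11, an accessory subunit of complex I (chr17:56717512-56717761, plus strand), Cox6a1, the broadly expressed isoform of a complex IV subunit (chr5:115348959-115349208, minus strand), Atp5g2, a gene for the proton-carrying c subunit of complex V (chr15:102671048-102671297, minus strand) and Atp5k, the e subunit of complex V (chr5:108434400-108434649, minus strand). Cox8b (chr7:140900447-140900696, minus strand) and Cox7a1 (chr7:30183921-30184170, plus strand), heart and muscle isoforms of complex IV subunits, are shown beside them because their levels behaved unlike those of the other members. Each sequence runs 5′ to 3′ up to the base before the start, and capitals mark the NRF1 pattern. Neither Cox8b nor Cox7a1 holds that pattern in the window. The window of the testis isoform Cox6b2, described later with them, is not printed and lacks the pattern too.
Ndufa11: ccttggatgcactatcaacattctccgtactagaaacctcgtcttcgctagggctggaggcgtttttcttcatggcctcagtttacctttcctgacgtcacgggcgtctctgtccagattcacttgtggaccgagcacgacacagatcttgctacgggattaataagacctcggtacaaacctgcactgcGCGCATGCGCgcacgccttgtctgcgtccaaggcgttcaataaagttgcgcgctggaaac
Cox6a1: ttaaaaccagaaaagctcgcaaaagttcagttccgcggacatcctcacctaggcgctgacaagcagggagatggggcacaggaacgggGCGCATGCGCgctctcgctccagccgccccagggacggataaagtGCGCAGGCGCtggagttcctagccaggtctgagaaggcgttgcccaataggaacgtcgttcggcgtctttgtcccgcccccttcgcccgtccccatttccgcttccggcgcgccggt
Atp5g2: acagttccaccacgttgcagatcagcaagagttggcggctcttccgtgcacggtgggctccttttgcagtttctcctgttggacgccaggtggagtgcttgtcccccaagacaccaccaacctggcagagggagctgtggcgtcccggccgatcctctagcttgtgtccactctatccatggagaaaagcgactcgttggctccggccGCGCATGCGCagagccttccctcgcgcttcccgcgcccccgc
Atp5k: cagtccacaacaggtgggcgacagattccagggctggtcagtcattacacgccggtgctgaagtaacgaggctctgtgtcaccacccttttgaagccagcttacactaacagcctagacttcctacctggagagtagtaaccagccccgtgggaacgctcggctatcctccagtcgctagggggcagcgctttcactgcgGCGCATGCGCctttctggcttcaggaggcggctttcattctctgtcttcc
Cox8b: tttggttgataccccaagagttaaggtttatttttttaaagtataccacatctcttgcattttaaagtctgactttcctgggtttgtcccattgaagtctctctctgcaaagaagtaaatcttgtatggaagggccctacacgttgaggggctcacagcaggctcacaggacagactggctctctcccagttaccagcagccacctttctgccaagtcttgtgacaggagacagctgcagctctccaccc
Cox7a1: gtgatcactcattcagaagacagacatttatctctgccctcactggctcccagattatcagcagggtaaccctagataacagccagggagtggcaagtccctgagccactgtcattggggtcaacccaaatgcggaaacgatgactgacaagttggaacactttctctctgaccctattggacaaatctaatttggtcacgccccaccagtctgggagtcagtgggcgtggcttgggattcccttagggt

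Per kilobase of exon, the members spanned a wide range in the young inputs. Cox4i1, the regulatory subunit at which complex IV binds adenine nucleotides, had a mean of 624.4 CPM per kilobase and Atp5b, the catalytic beta subunit of complex V, 612.5. The median of complex I was 85.8 CPM per kilobase, of complex II 89.5, of complex III 115.3, of complex IV 123.3 and of complex V 164.5. The 3 genes that encode the same mature c subunit were unequal, at 321.7 CPM per kilobase for Atp5g3, 103.7 for Atp5g2 and 23.9 for Atp5g1, whose exon union is long (4912 bases). At the low end Cox8b (7.11), Cox6a2 (3.53) and Cox7a1 (2.79 CPM per kilobase) were the tissue-restricted complex IV isoforms. Of the 2 members that did not pass the filter on low counts, Cox8c was listed at 0 in all 36 libraries and Cox7b2 reached at most 11 counts. The other 84 members were tested in each comparison.

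The first question was how the respiratory genes stand in microglia-enriched ribosome-bound RNA against the whole hippocampus of the same animals. Most members differed little. Neuronal RNA remained in the pulldown (marker median -0.21), so levels in microglia and carried-over input RNA cannot be told apart in these values. Of the 84 tested, 34 were lower and 3 higher in TRAP (edgeR's quasi-likelihood test without pairing by animal, adjusted p under 0.05). Across all 14596 genes tested 59.2% were called (28.8% lower, 30.4% higher), and of the members 40.5% were lower. The median log2 fold change of the members was -0.10, against -0.02 for all genes, a small difference next to the 4.28 of the microglial markers. Under upper quartile scaling the median of all genes moved from -0.02 to -0.16 and that of the members to -0.24, which left the members' distance from all genes at -0.08.

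**Figure D1:**
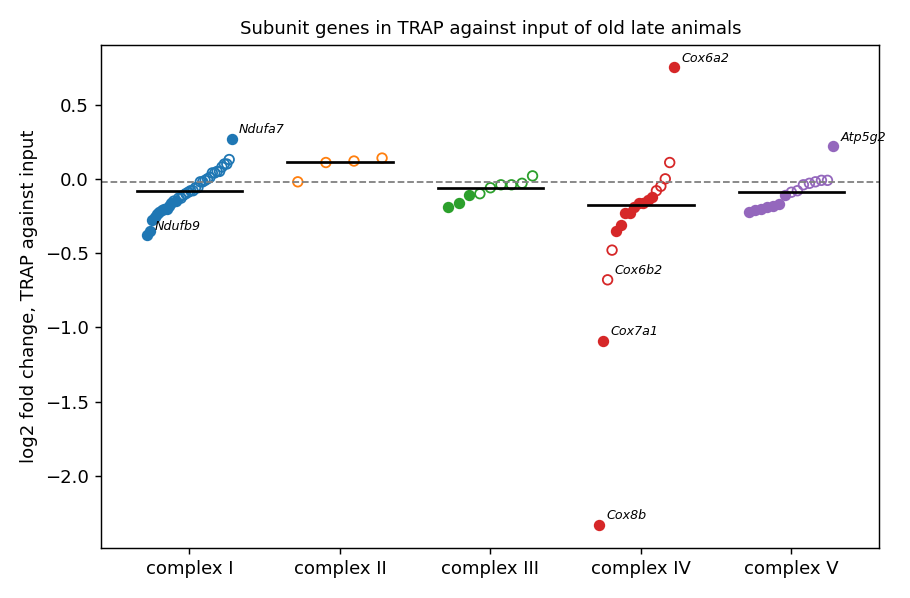
Log2 fold change of TRAP against input (vertical axis) for each tested subunit gene, by complex; filled points passed the adjusted p threshold of 0.05, open points did not, black bars are complex medians and the dashed line is the median of all genes tested (-0.02). Complex IV has the lowest median (-0.17) and the widest spread, from Cox8b at -2.33 to Cox6a2 at 0.75.

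In complex I, 12 of 36 subunit genes were lower (33.3%, near the 28.8% of all genes). Only 1 was higher (2.78%, against 30.4%), and the complex's median was -0.08. Ndufb9, an accessory subunit of the membrane arm, had 155.1 to 197.0 CPM in the 7 inputs and 120.3 to 146.3 in the 7 TRAP libraries. Its groups did not overlap, and the log2 fold change was -0.38 ± 0.05 (SE; adjusted p = 3.41e-06, edgeR). Members whose TRAP and input groups did not overlap numbered 7 lower (Atp5j, Atp5o, Cox8a, Ndufa12, Ndufab1, Ndufb5 and Ndufb9) and 1 higher (Ndufa7), against 9.81% and 20.3% of all genes tested. Ndufb5, of the same arm, fell by 0.35 ± 0.06 on the log2 scale (adjusted p = 5.75e-05, edgeR) and was lower in TRAP in 7 of 7 animals.

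Ndufa7 went the other way. This accessory subunit of the complex I peripheral arm stood at 53.5 to 65.8 CPM in the inputs and 67.7 to 78.4 in TRAP, with every TRAP library above every input. Its log2 fold change was 0.27 ± 0.05 (adjusted p = 0.000279, edgeR), and it was higher in 7 of 7 animals. Of the 7 core subunits, which hold the flavin and the iron-sulphur clusters, 2 were lower (28.6%, near the 28.8% of all genes). Ndufs1, the largest of them, fell by 0.16 ± 0.05 (adjusted p = 0.0105) and Ndufv2 by 0.20 ± 0.05 (adjusted p = 0.00277) on the log2 scale (edgeR). The other 5 core genes lay between -0.02 and 0.08.

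Complex II showed no called gene of 4, where 59.2% of all genes were called. Its median log2 fold change was 0.11 on the trimmed-mean scale. Sdhb, the iron-sulphur subunit, had a median of 131.4 CPM in the inputs and 147.7 in TRAP and was above its own input in 7 of 7 animals (log2 fold change 0.14 ± 0.06, adjusted p = 0.0583, edgeR). With the animal as a block the same change passed the threshold (0.13 ± 0.05, adjusted p = 0.0200). Sdha, the flavoprotein subunit, differed by -0.02, and the membrane anchors Sdhc and Sdhd by 0.11 and 0.12. The median of the 4 genes was -0.03 under upper quartile scaling and 0.00 with library size only, so its sign depends on the scaling, and Sdha then passed the threshold as lower (-0.16, adjusted p = 0.00443, and -0.12, adjusted p = 0.0214, edgeR). In both scalings it lay above the median of all genes (-0.16 and -0.13).

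In complex III, 3 of 9 genes were lower (33.3%, near the 28.8% of all genes) and none higher (against 30.4%). Uqcrh, the hinge protein between cytochrome c1 and cytochrome c, fell by 0.19 ± 0.05 (adjusted p = 0.00539, edgeR), while Cyc1, cytochrome c1 itself, differed by -0.06 ± 0.04 (adjusted p = 0.221).

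Complex IV had the largest share of called members, 12 of 18 tested (66.7%, against 59.2% of all genes). Of the 18, 11 were lower (61.1%, against 28.8% of all genes) and 1 was higher (5.56%, against 30.4%). Cox8a, the broadly expressed form of the smallest subunit, stood at 265.0 to 325.3 CPM in the inputs and 215.4 to 247.6 in TRAP. The groups did not overlap, and the log2 fold change was -0.35 ± 0.05 (adjusted p = 1.90e-05, edgeR). Cox4i1 had 497.9 to 609.2 CPM in the inputs and 433.0 to 522.6 in TRAP, overlapping ranges with the lower value in TRAP in 7 of 7 animals. The mean log2 level of the 12 complex IV genes with at least 10 CPM on average was lower in TRAP in 7 of 7 animals, by 0.01 to 0.23.

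The extremes of complex IV were its tissue isoforms. Cox6a2, the heart and skeletal muscle form of subunit 6A, had 3.36, 4.96, 3.17, 3.14, 2.36, 3.51 and 4.37 CPM in the inputs of animals 1 to 7 and 4.05, 5.46, 9.21, 6.54, 7.43, 5.63 and 4.22 in their TRAP libraries. It was higher in TRAP in 6 of 7 animals, with overlapping groups and a log2 fold change of 0.75 ± 0.20 (adjusted p = 0.00491, edgeR). Its gene overlaps that of the integrin Itgad on the opposite strand, which had a mean of 4.50 counts against 57.3 for Cox6a2.

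Cox8b, the heart and muscle counterpart of Cox8a, fell in TRAP by 2.33 ± 0.66 on the log2 scale (adjusted p = 0.00583, edgeR) and in 7 of 7 animals. In the inputs of animals 1 to 7 it had 8.65, 9.17, 0.453, 0.615, 4.49, 13.9 and 8.26 CPM, and in TRAP 2.46, 3.05, 0.246, 0.00, 0.939, 2.43 and 0.720. The inputs of animals 3 and 4 thus stood far below the other 5. Cox7a1, the muscle form of subunit 7A, fell by 1.09 ± 0.33 (adjusted p = 0.00979) but missed the threshold in females only (-0.73, adjusted p = 0.117), and the testis form Cox6b2 differed by -0.68 ± 0.30 (adjusted p = 0.0617).

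These isoforms moved with RNA of the choroid plexus, the secretory tissue that borders the hippocampus. Ttr, the transthyretin gene that choroid plexus transcribes heavily, was above 1000 CPM in 15 of 29 inputs (1523 to 3777) and at 22.4 to 153.1 CPM in the other 14. Cox8b had 2.50 to 13.9 CPM in those 15 inputs and 0.00 to 0.649 in the 14, so the sets did not overlap. Cox6b2 was also split without overlap, at 2.56 to 7.04 against 0.652 to 2.08 CPM. Cox7a1 was at 1.37 to 5.04 against 0.615 to 1.85 CPM, and Cox6a2, at 1.82 to 4.96 against 2.16 to 4.02, was not split. Among inputs with high Ttr, Cox8b had 2.50 to 5.14 CPM in 6 young inputs, 9.22 to 13.8 in 4 old early inputs and 4.49 to 13.9 in 5 old late inputs, while Ttr itself had medians of 1952, 2933 and 2889 CPM. All 6 choroid plexus markers had negative fold changes in TRAP, 5 of them called, with a median of -2.08. The part of choroid plexus RNA in these isoforms' changes in TRAP was not tested. A fit with a choroid plexus score, the mean of these markers, as a covariate was run for the inputs only.

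**Figure D2:**
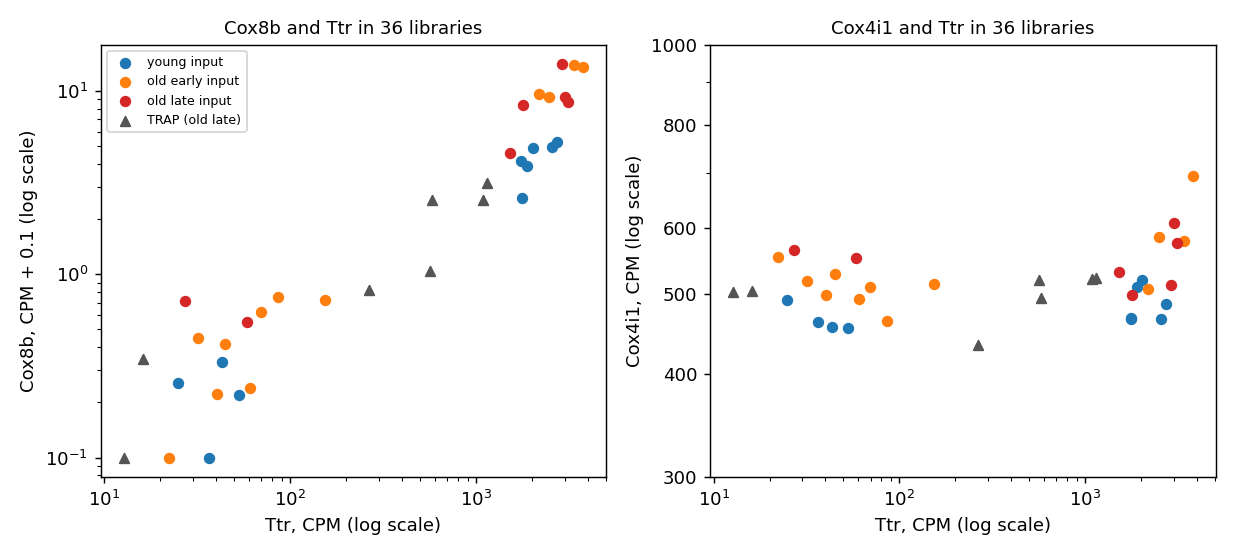
Cox8b (left, CPM + 0.1) and Cox4i1 (right, CPM) against Ttr (CPM) in each of the 36 libraries, all axes logarithmic, coloured by group with TRAP as triangles. Cox8b stays under 0.649 CPM in the 14 inputs with low Ttr and reaches 13.9 CPM in the 15 with high Ttr, while Cox4i1 stays between 433.0 and 693.6 CPM.

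In complex V, 7 of 15 genes were lower (46.7%, against 28.8% of all genes) and 1 higher (6.67%, against 30.4%). The F1 subunit genes, which form the catalytic head, were near input level, with 1 of 5 called (Atp5b, -0.11 ± 0.04, adjusted p = 0.0251, edgeR) and Atp5a1, the alpha subunit, at -0.02. The c subunit genes parted. Atp5g3 had 231.2 to 283.4 CPM in the inputs and 197.4 to 232.1 in TRAP and fell by 0.22 ± 0.05 on the log2 scale (adjusted p = 0.00108). Atp5g1 fell by 0.19 ± 0.07 (adjusted p = 0.0309).

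Atp5g2 was the c subunit gene that rose in TRAP, and it carries the NRF1 palindrome printed above. The other members with that palindrome did not rise. Cox6a1 (-0.16, adjusted p = 0.0121) and Atp5k (-0.18, adjusted p = 0.0372) were lower, and Ndufa11 was not called (-0.11, adjusted p = 0.119, edgeR). A link between the motif and the changes was not tested. Atp5g2 had 87.1, 87.3, 93.5, 77.2, 89.3, 74.9 and 73.2 CPM in the inputs of animals 1 to 7 and 98.4, 84.4, 108.1, 94.0, 110.9, 107.0 and 86.4 in TRAP. The groups overlapped and 6 of 7 animals were higher, with a log2 fold change of 0.22 ± 0.08 (adjusted p = 0.0188, edgeR) that missed the threshold without input replicate 4 (0.18, adjusted p = 0.0596), without TRAP replicate 5 (0.17, adjusted p = 0.0587), under upper quartile scaling (0.08, adjusted p = 0.368) and with library size only (0.11, adjusted p = 0.165). Of the CPM of the 3 c subunit genes, Atp5g2 made up a median of 18.0% in the inputs (16.4 to 21.6) and 22.9% in TRAP (19.7 to 26.5). That share does not depend on the scaling between libraries.

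Genes that serve the complexes were counted from lists. In TRAP, 7 of 16 regulators of mitochondrial biogenesis were higher and 1 was lower, with a median of 0.20, where 30.4% of all genes were higher and 28.8% lower. Gabpa, the DNA-binding part of GABP, rose by 0.50 (adjusted p = 3.25e-05), Nrf1 by 0.44 (adjusted p = 0.000115) and Polg, the mitochondrial DNA polymerase, by 0.44 (adjusted p = 4.98e-05), while Ppargc1a, the coactivator PGC-1 alpha, fell by 0.63 (adjusted p = 5.13e-07; edgeR). Of 16 genes of pyruvate dehydrogenase and the citric acid cycle 10 were lower and 3 higher, and of 20 carrier and ubiquinone genes 8 were lower and 3 higher. Of 43 tested assembly factors, 4 were higher and 9 lower. Gabpa overlaps Atp5j on the opposite strand.

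The second question was whether respiratory genes differ between old and young hippocampus. The old early and old late comparisons share the 10 young inputs. All young inputs were early-induced, so age and induction cannot be told apart in the old late comparison. In the old early inputs 25 of 84 members were higher and none lower (edgeR, adjusted p under 0.05), where 25.6% of the 14948 genes tested were called (13% higher, 12.6% lower). In the old late inputs 46 were higher and none lower, where 34.5% of all genes were called (17% higher, 17.5% lower). The differences were small. The members' median log2 fold change was 0.10 in the old early and 0.14 in the old late comparison, against 0.01 for all genes in both. The members' summed share of all counts was 1.13 to 1.26% in the young, 1.15 to 1.46% in the old early and 1.21 to 1.39% in the old late inputs.

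By complex, the old early inputs had 12 of 36 complex I genes higher, 1 of 4 in complex II, 3 of 9 in complex III, 5 of 18 in complex IV and 4 of 15 in complex V. In the old late inputs these counts were 23, 1, 5, 9 and 8. Of all genes tested, 13% were higher in the old early and 17% in the old late comparison. The medians lay between 0.07 and 0.12 in the old early and between 0.09 and 0.16 in the old late comparison, lowest in complex II in both.

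Among single members, Uqcrc1, a core protein of complex III, had the smallest adjusted p and was chosen for it after the values were seen. It had 226.4 to 251.9 CPM (median 242.5) in the young, 248.9 to 287.6 (median 260.6) in the old early and 255.1 to 278.7 (median 267.8) in the old late inputs. The old late inputs did not overlap with the young, and the old early inputs overlapped only at their lower edge. Its log2 fold changes were 0.14 ± 0.03 (adjusted p = 0.000333) and 0.15 ± 0.03 (adjusted p = 0.000372, edgeR). Cox7a2 was the other member with old late inputs apart from young, so that 2 members did not overlap where 2.83% of all genes were higher without overlap. In the old early comparison 0 members were higher without overlap, where 0.963% of all genes were. No member was lower without overlap in either comparison (0.896% and 4.01% of all genes).

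Cox4i1 had 453.9 to 518.9 CPM (median 466.6) in the young, 462.9 to 693.6 (median 516.4) in the old early and 497.9 to 609.2 (median 551.7) in the old late inputs. The groups overlapped, and the log2 fold changes were 0.17 ± 0.05 (adjusted p = 0.00591) and 0.21 ± 0.05 (adjusted p = 0.00244, edgeR). The highest value, 693.6 CPM, came from old early replicate 5.

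Of the other named members, Ndufb4, an accessory complex I subunit, rose by 0.20 ± 0.05 in the old early inputs (adjusted p = 0.00316), from a young median of 56.0 to 63.4 CPM. Ndufb10 rose by 0.24 ± 0.05 (adjusted p = 0.000808), Ndufb7 by 0.24 ± 0.06 (adjusted p = 0.00288) and Uqcrh by 0.26 ± 0.06 (adjusted p = 0.00203) in the old late inputs (edgeR). Cox6a2 rose by 0.45 ± 0.13 (adjusted p = 0.0094) and 0.58 ± 0.14 (adjusted p = 0.00243), at medians of 2.32, 3.28 and 3.36 CPM in the young, old early and old late inputs. Cox7a1 had 0.615 to 2.57 CPM (median 1.45) in the young and 1.08 to 5.04 (median 2.76) in the old late inputs, with overlap. It rose by 0.95 ± 0.29 (adjusted p = 0.0121, edgeR) in the old late inputs, and by 0.80 (adjusted p = 0.000742) with the choroid plexus score as a covariate. In females only its difference was 0.49 (adjusted p = 0.354), and that of Cox6a2 was 0.25 (adjusted p = 0.443) in the old early and 0.37 (adjusted p = 0.185) in the old late comparison.

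Atp5g2, whose rise in TRAP depended on the scaling, rose by 0.16 ± 0.05 (adjusted p = 0.0135) in the old early and 0.15 ± 0.06 (adjusted p = 0.0372, edgeR) in the old late inputs. In neither comparison was it called in females only or with a length trend removed, 2 fits described below.

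Core complex I genes were higher in 3 of 7 cases in the old early and 6 of 7 in the old late inputs. The shares of all genes were 13% and 17%. Ndufs1 was the core gene that was not called in the old late comparison (0.03 ± 0.04, adjusted p = 0.587), with medians of 154.5, 155.5 and 161.6 CPM. In complex II, Sdha rose by 0.07 ± 0.02 (adjusted p = 0.0381) and 0.09 ± 0.03 (adjusted p = 0.0101, edgeR).

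**Figure D3:**
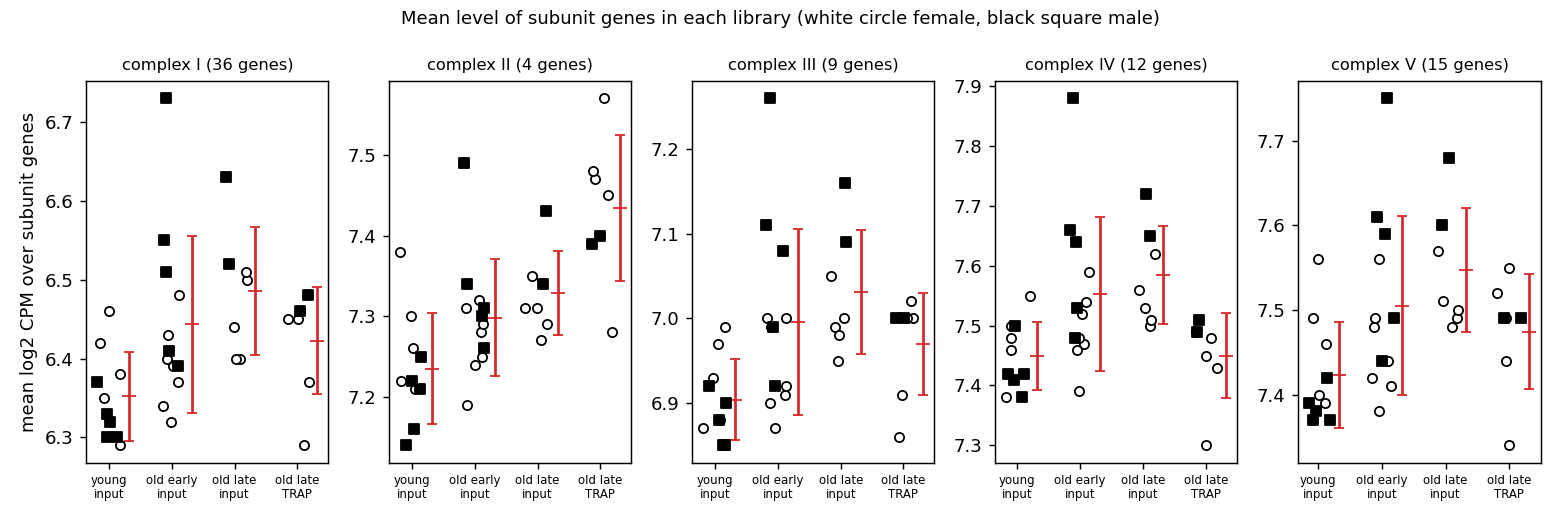
Mean log2 CPM over the subunit genes of each complex with at least 10 CPM on average, 1 point per library, for the 3 input groups and TRAP (white circles female, black squares male); red marks are group means ± SD. Groups overlap in every complex, old early replicate 5 (male) is the highest input, and female old early libraries lie in the range of the young ones or near it.

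Fits within each sex gave different counts. In females, 0 of 84 members were called in the old early comparison (edgeR; 3 at an unadjusted p under 0.05; 8.06% of all genes called), with a median of 0.00, and 2 of 84, Ndufb10 and Uqcrc1, in the old late comparison (median 0.07; 18.8% of all genes called). In males 29 were higher in the old early comparison (median 0.20; 14.9% of all genes called) and 22 in the old late comparison (median 0.25; 8.89% of all genes called), which has 2 old males. Complex I's mean log2 CPM was 6.30 to 6.37 in 5 young males and 6.39 to 6.73 in 5 old early males, but 6.29 to 6.46 in 5 young females and 6.32 to 6.48 in 7 old early females. The difference between the sexes was tested as an interaction of age and sex in the 22 early-induced inputs. No gene of 14547 was called, and the smallest adjusted p of a member was 0.217 (edgeR). At an unadjusted p under 0.05 stood 53 of 84 members, all with a larger fold change in males, against 15.6% of all genes. The members' median difference between male and female fold changes was 0.21. Choroid plexus RNA also differed by sex. Median Ttr was 52.9 CPM in young and 2483 in old early males, but 1890 and 69.5 in females, with overlapping ranges. It was 3012 and 3123 CPM in the 2 old late males, and the old late female median was 1523. The part of choroid plexus RNA in the members' differences between the sexes was not tested.

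The members' rise moved with a property of the libraries that reaches far beyond these genes. Members are short, with a median exon length of 977 bases against 3382 for all genes tested. Across all genes with a length, log2 fold change and exon length had a Spearman rho of -0.34 in the old early and -0.37 in the old late comparison, as a description over genes that are not independent. Per library, the rho between each non-member gene's deviation from its mean over the inputs and exon length ran from -0.02 to 0.32 in young inputs, -0.45 to 0.23 in old early inputs and -0.39 to 0.07 in old late inputs. In the 5 young males it was 0.20 to 0.32, in the 5 old early males -0.45 to 0.15. The members' mean log2 CPM followed it closely, with Pearson's r of -0.94 and Spearman's rho of -0.96 over the 29 inputs. Within groups r was -0.94 (young, n = 10), -0.95 (old early, n = 12) and -0.92 (old late, n = 7), and without the 2 libraries farthest from the median length relation it was -0.95 over all inputs, -0.81, -0.95 and -0.94. Both measures come from the same libraries and share their depth and scaling, and they are given as a description without a p.

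**Figure D4:**
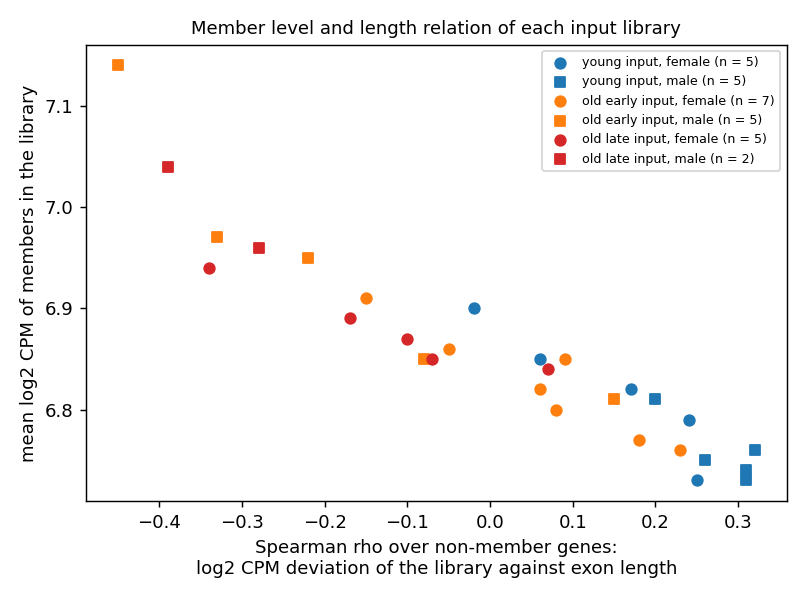
Mean log2 CPM of the 78 members with at least 10 CPM on average (vertical axis) against the library's length relation over the non-member genes (horizontal axis, Spearman rho; negative where short genes are high), 1 point per input library, coloured by group with squares for males. The points form 1 falling band that the 3 groups share (r = -0.94, n = 29).

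With a smooth trend on exon length removed from each library, the members no longer stood above other genes. In the old early comparison 0 were higher and 3 lower (edgeR; 14 at an unadjusted p under 0.05), where 22.3% of all genes were called, and the members' median was 0.01, equal to that of all genes. The 3 were Ndufa6, Ndufb6 and Uqcr11. In the old late comparison 4 were higher (Cox6a2, Cox7a1, Ndufb2 and Sdha) and 4 lower (Cox5a, Cox8a, Ndufb6 and Uqcr11), where 29.2% of all genes were called. Sdha kept a change of 0.07 ± 0.03 (adjusted p = 0.0380) and Cox6a2 0.41 ± 0.15 (adjusted p = 0.0341). Whether the length relation arose in the tissue, the lysate or the library was not tested. In the TRAP comparison rho was -0.06 over all genes, and with the trend removed 43 members were lower and 3 higher, where 60% of all genes were called.

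**Figure D5:**
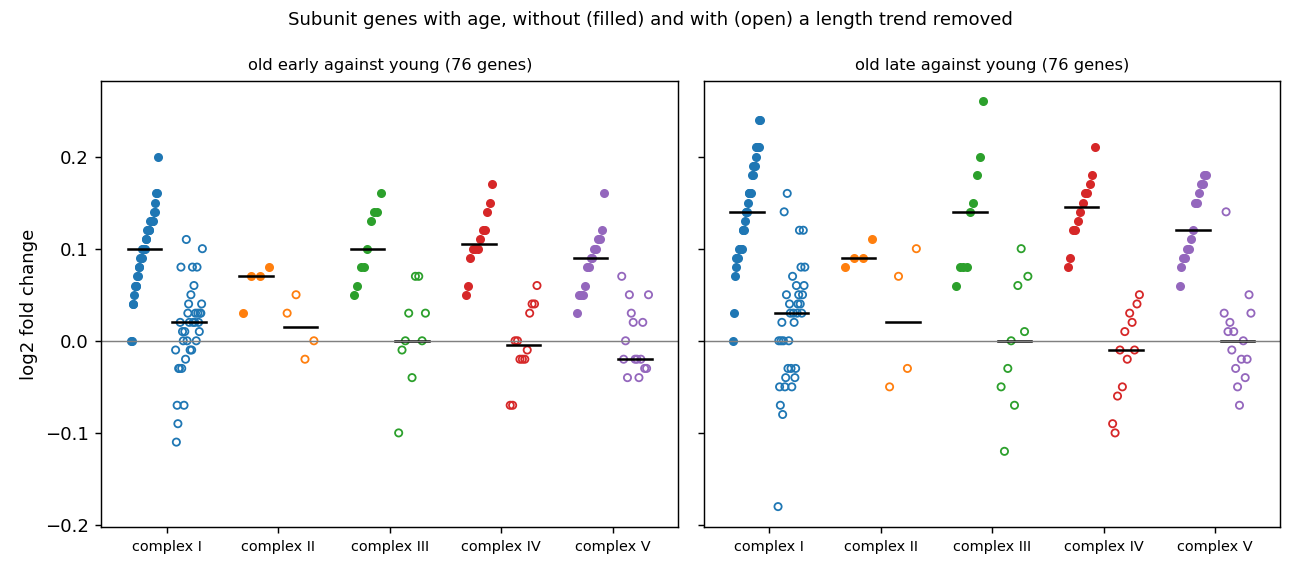
Log2 fold change of old against young inputs for the 76 subunit genes with at least 10 CPM on average, by complex, in the old early (left) and old late (right, where induction differs too) comparison; filled points have no length correction, open points come from the fit with a length trend removed, and bars are medians. Filled points lie almost wholly above 0, and open points scatter around it.

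Single libraries also moved the counts. In the old early comparison 12 members were called without old early replicate 5, 10 without young replicate 8, 14 without young replicate 3, 16 without young replicate 2, old early replicate 2, old early replicate 8 or old late replicate 1 (in turn), and 39 without young replicate 5. In the old late comparison 24 were called without old late replicate 2, 27 without old late replicate 1 or 4 (in turn) and 30 without young replicate 8. Old early replicate 5, the highest input for the members, was also the highest in the blood marker list (mean log2 CPM 8.34 against a group median of 5.13), with Alas2, an erythroid gene, at 62.3 CPM against a median of 6.40. Blood markers were higher in both old groups (2 of 4 and 4 of 4 called), as were 13 of 14 and 14 of 14 microglial markers and 7 of 8 and 8 of 8 oligodendrocyte markers (medians 0.34 and 0.48), while 6 choroid plexus markers had medians of -0.67 and 0.33 with none called. The part of blood, microglial and oligodendrocyte RNA in the members' rise was not tested. With the choroid plexus score as a covariate, 49 members were higher in the old early and 44 in the old late comparison. The share of all genes called is not printed for this fit or for those with a library left out. These counts alone thus do not tell a move of the members from a shift in all genes.

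Pathway genes outside the members were counted in the old against young inputs too, where 13% and 17% of all genes were higher and 12.6% and 17.5% lower in the old early and old late comparisons. Of 20 carrier and ubiquinone genes, 7 were higher and 1 lower in the old early inputs (median 0.05) and 8 higher and 2 lower in the old late inputs (median 0.08). Of 43 tested assembly factors, 8 were higher and 1 lower in the old early inputs and 7 higher and 3 lower in the old late inputs. Of 16 citric acid cycle genes 2 and 3 were higher, and none lower. Among 16 biogenesis regulators none was higher, and 4 and 3 were lower, with Polg falling by 0.20 (adjusted p = 0.0011) and by 0.25 (adjusted p = 0.000333, edgeR).

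Early and late induction were compared in the old inputs, since the study asked whether the age at induction matters. No member was called (0 of 84, edgeR), where 0.0334% of all genes were (0.0268% higher, 0.00669% lower), and 2 members had an unadjusted p under 0.05. DESeq2 and limma also called 0 members. No member was apart without overlap (0.00669% of all genes higher, 0% lower). The members' median log2 fold change was 0.04, against 0.00 for all genes. Cox7a1, at 0.74, and Cox8b, at 0.90, had the largest differences and did not pass the test (adjusted p = 0.295 and 0.687). In simulated data for this comparison, 96% of changes of 1 on the log2 scale were recovered but 2% of changes of 0.15. The simulation changed 99 and 100 of 14855 genes by these sizes, against 0.0334% of genes called in the data. Its adjusted threshold was thus laxer, so these figures do not measure sensitivity in the data. For the old late comparison with young inputs, where 46 members were called, the simulated recovery of 0.15 was 7%. That simulation changed 100 of 14856 genes by 0.15 and 100 by 1, against 34.5% of genes called in the data. The adjusted threshold was thus stricter in the simulation, so 7% does not measure sensitivity in these data.

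Males and females were compared over all inputs with the group in the model. No member was called (0 of 84, edgeR; 0 by DESeq2 and limma), where 0.174% of all genes were (0.0468% higher, 0.127% lower), although 25 had an unadjusted p under 0.05 and 80 of 84 fold changes were above 0. The members' median was 0.07, and 0.02 with the length trend removed.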

How the data were processed

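RNA-seq libraries from mouse hippocampus were used as 1 deposited table of 36172 gene entries by 36 libraries, in which the authors give an estimated count per gene and library: 77.2% of the values above 0 were not whole (tolerance 1e-06). The build mm10 and DESeq2 are named in the submitters' processing notes, and the aligner and the counting program are not given in the sources used here. Whether counting used strand is not given either, and 12 members overlap another entry. Library totals of 12897306 to 20448675 set the precision. Of 22013 protein-coding entries, 3476 were listed at 0 in every library.

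Estimated counts were rounded and tested with edgeR 4.0.16 (quasi-likelihood, trimmed-mean scaling, filterByExpr with a minimum count of 10, Benjamini-Hochberg adjustment over all genes) in R 4.3.3. The 14 old late libraries gave the TRAP comparison, with sex in the model. The 29 inputs gave the others, with group and sex. DESeq2 1.42.0 and limma 3.58.1 were alternatives, besides other scalings, filters, single sexes and each library left out. The length trend (a lowess of each library's deviation on exon length), the choroid plexus covariate, the fits in males only and the interaction of age and sex were added after seeing the data. Exon lengths came from the GENCODE basic annotation and promoter windows from RefSeq tables. Python 3.11.15 and pandas 2.3.3 were used for summaries.

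Members and lists were chosen with earlier results of these data known. Named members are the 5 called with the largest increase and the 5 with the largest decrease in each comparison (average log2 CPM over 1), the core complex I, complex II, c subunit and F1 genes, Cyc1 and the tissue isoforms of complex IV. Some further members are named for a count, a level or a p-value and were chosen after their values were seen. Animal numbers in the labels are separate within a group, so p-values of the input comparisons reflect the spread between animals. The numbers pair TRAP with input: the 7 same-animal pairs had correlations of deviations of 0.308 to 0.47, against a median of -0.086 for other pairs. The main TRAP fit had no animal term, so its p-values treat the paired libraries as independent. A fit with the animal as a block was an alternative. On simulated data for the TRAP comparison, 86.7% of changes of 1 on the log2 scale were recovered and 1% of changes of 0.15. The simulation changed 98 and 99 of 14518 genes by these sizes, against 59.2% of genes called in the data. Its adjusted threshold was thus stricter, so these figures do not measure sensitivity in the data.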

Additional observations from a re-analysis of the deposited data

Results flagged for a closer look

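Among 57 group and gene sets with 4 to 10 samples, 4 held a library far from the others, where chance gives about 1 in 20. TRAP replicate 7 was the lowest of 7 in the mean log2 CPM of complex IV (7.30, with the next at 7.43), in Cox4i1 (log2 CPM 8.76, with the next at 8.95) and in Cox8a (7.75, with the next at 7.88). Old late input replicate 2 was the highest of 7 in Ndufb5 (log2 CPM 6.67, with the next at 6.48). Ndufb5 and Cox8a remained lower in TRAP when any single library was left out.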

How the results depend on the processing

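In the TRAP comparison 67 members were called under upper quartile scaling (66.1% of all genes) and 62 with library size only (63.8%), against 37 (59.2%). In females only 25 were called (53.6%), and leaving out single libraries gave 33 to 42. With the replicate block, which pairs TRAP and input of an animal, 43 were called (6 higher, 37 lower; 63.9% of all genes). In the old early comparison with young inputs 25 were called (25.6% of all genes). In females only 0 were called (8.06%), and 3 with the length trend removed (22.3%). With that trend removed and old early replicate 5 left out 3 were called, and 49 with the choroid plexus covariate. Leaving out single libraries gave 10 to 39. In the old late comparison 46 were called (34.5% of all genes). In females only 2 were called (18.8%), in males only 22 (8.89%) and with the length trend removed 8 (29.2%). With that trend removed and old early replicate 5 left out 8 were called. Leaving out single libraries gave 24 to 57. Counts printed here without a share of all genes do not tell a move of the members from a shift in all genes. Both comparisons of inputs with no called member kept 0 under every alternative run, with 0 to 0 when single libraries were left out. Of the members named by rule, Ndufb7 in the old early comparison lost its call most often, under 11 of 43 alternatives, and none changed direction. The causes of these changes were not tested. Depth limits Cox8b, Cox7a1 and Cox6b2, with median counts of 49.5, 24.1 and 41.3 in young inputs.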
